A study of Mus musculus with 8 samples.

Results

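The integrin and laminin genes were followed through a knockout of Setd2, the methyltransferase that places trimethylation on lysine 36 of histone H3 (H3K36me3). Members were the protein-coding genes of the RefSeq annotation of the mouse build GRCm38 whose symbols begin with Itga or Itgb or name a laminin alpha, beta or gamma chain. There were 42 of them among 21887 protein-coding genes: 18 integrin alpha subunits, 9 integrin beta subunits, 11 laminin chains and 4 genes that only carry integrin beta in their name. The mark had been mapped by ChIP-seq, in which chromatin pulled down with an antibody is sequenced, and each gene was described by its coverage, the percent of its span, introns included, that lay under the authors' peaks.

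The KO group was bone marrow stromal cells (BMSCs) from Setd2 fl/fl mice of the C57BL/6J strain infected with a lentivirus expressing Cre recombinase, which cuts out the floxed part of Setd2. The WT group was BMSCs of the same Setd2 fl/fl genotype infected with a lentivirus expressing GFP, so both groups carried the floxed allele and a lentivirus, and WT is not a cell without either. Both were at passage 2 and had been kept in 2 µg/ml puromycin for 4 days before fixation in 1% formaldehyde for 10 min. Each group had 2 H3K36me3 libraries, 1 Input library and 1 IgG library, and each H3K36me3 library came with 1 peak list against Input and 1 against IgG. Nothing in the labels says that the 2 libraries of a group came from separate cultures or animals, so the p-values measure only the spread between these libraries. The cells were a bulk stromal culture, in which fewer cells carrying the mark and less mark per cell cannot be told apart.

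Integrins are receptors made of 1 alpha and 1 beta subunit that join the cell to extracellular matrix or to other cells and pass signals both ways across the membrane. Laminins are matrix proteins made of 1 alpha, 1 beta and 1 gamma chain, and they form a sheet in basement membranes that some integrins bind. H3K36me3 is laid down behind elongating RNA polymerase II, so in mammalian cells it marks the bodies of transcribed genes more than their starts.

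Promoters of 4 members are printed because their coverage differed most in kind: Itga9 was the 1 member in the promoter table whose start window lay at least partly under a peak in all 4 libraries, Itgb1 and Lamb2 were covered over more than 50% of their span in WT cells but not at the start, and Itgb2l held no WT peak. The sequences are RefSeq's on GRCm38.p6, run 5′ to 3′ on the strand of the gene, and hold 250 bases before and 50 after the listed start. Capitals mark CpG dinucleotides (the letters CG, the same on both strands). Itga9 lies at chr9:118711442-118711741 on the + strand, Itgb1 at chr8:128685404-128685703 on the + strand, Lamb2 at chr9:108479612-108479911 on the + strand and Itgb2l at chr16:96443565-96443864 on the − strand.
Itga9: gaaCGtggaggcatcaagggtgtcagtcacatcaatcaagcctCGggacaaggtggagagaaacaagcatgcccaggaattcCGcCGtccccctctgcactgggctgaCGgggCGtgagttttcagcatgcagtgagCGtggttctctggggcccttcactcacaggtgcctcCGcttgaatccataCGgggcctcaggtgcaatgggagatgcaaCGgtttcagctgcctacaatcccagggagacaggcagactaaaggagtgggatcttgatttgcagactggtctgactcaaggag
Itgb1: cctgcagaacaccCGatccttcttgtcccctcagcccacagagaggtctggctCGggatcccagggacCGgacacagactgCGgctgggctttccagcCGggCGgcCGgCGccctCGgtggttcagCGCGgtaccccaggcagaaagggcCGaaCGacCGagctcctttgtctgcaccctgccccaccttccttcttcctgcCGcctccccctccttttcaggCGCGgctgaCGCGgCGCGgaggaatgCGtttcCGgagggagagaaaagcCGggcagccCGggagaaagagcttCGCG
Lamb2: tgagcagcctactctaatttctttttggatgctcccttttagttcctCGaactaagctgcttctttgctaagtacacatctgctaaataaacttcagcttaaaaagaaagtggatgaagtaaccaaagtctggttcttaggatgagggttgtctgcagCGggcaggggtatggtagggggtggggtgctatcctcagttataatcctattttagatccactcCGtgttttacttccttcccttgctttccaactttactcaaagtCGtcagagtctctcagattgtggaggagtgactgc
Itgb2l: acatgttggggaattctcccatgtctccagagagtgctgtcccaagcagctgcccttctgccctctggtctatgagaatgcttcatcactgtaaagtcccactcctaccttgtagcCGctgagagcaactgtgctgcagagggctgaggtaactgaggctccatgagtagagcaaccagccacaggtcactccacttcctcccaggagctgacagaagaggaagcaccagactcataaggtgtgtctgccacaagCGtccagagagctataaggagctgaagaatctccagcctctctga
The windows hold 10 CpG in Itga9, 27 in Itgb1, 4 in Lamb2 and 2 in Itgb2l. Among the 17492 promoters of that length, 94.8% hold at least 1 CpG and 57.2% hold 10 or more. The table held 27 of the 42 members, with a median of 12 CpG against 13 over all promoters.

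Setd2 itself, the targeted gene, was covered over 0.690 and 1.70% of its span in the KO libraries, against 66.4 and 60.5% in the WT libraries, and fell (limma, adjusted p = 0.000259). This is the mark over Setd2 and does not measure the deletion. The peak lists against Input held 122589 and 159459 peaks in the KO libraries and 242745 and 246258 in the WT libraries. Read depth is unknown, because the lists hold no counts, so no interval for counting error can be given for a coverage. Of 15 stromal markers, 10 had a mean coverage of 10% or more over the 4 libraries. All 10 fell (limma), beside 92.6% of all genes with that coverage. The highest mean KO coverage among the 10 was 7.55%, in Vim, so each reached 10% only through WT. Mean coverage over the list was 2.16 and 1.77% in the KO libraries, against 36.3 and 34.1% in the WT libraries. Twist1, S100a4 and Thy1 held no WT peak. Against IgG 6 of the 15 were tested and fell, beside 91.4% of all genes tested against IgG. Col1a1 and Vim, at 68.8 and 87.2% in WT against Input, held no WT peak against IgG. Col1a2 and Cxcl12 had 5.61 and 2.61% in WT against IgG. In WT coverage, the stromal label was thus matched by part of the list, and by less of it against IgG.

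H3K36me3 coverage of most covered integrin and laminin genes was lower in KO cells, as it was over most covered genes of the genome. Differences were tested with limma on the percent scale, at a Benjamini-Hochberg adjusted p of 0.05. Fitted without a filter on coverage over 18288 genes, 24 of the 42 members fell, 1 rose and 17 did not pass, beside 58.5% of all genes falling and 2.69% rising. In the fit used for the single values, over the 10809 protein-coding genes whose coverage averaged 10% or more across the 4 libraries, 21 members were included and all 21 fell, with adjusted p up to 0.00698, while 92.6% of all genes in that fit fell and 0.555% rose. No member had a mean KO coverage above 8.63%, so each of the 21 passed this filter only through its WT coverage, which leaves little room for any other direction. Their count is therefore a description and says nothing about the members as a group. The median difference, KO minus WT, was -37.8 percentage points over the 21 members and -47.7 over all genes in the fit. Scaling each library to its mean gene coverage moved the median difference of all genes to -16.7 points. Of the 21 members, 10 then stayed lower, beside 45.2% of all genes. Another 7 no longer passed (Itgb2, Itgal, Itga3, Itga10, Itgb1bp1, Lama4 and Lamb2). The sign changed in 4 (Itga9 and Itga7 past the threshold, Itgb7 and Itgam not). Under that scaling 2.41% of all genes were higher in KO. Of the calls made there, 83.3% of the members' were lower in KO, against 100% without scaling, and over all genes 94.9% against 99.4%.

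By class and without the filter, 11 of 18 integrin alpha genes fell, beside 58.5% of all genes falling and 2.69% rising. The same shares stand beside the other classes. Of the alpha genes above the filter, Itga9, Itga7 and Itgam change sign under that scaling. Genes that fell only without the filter, such as Itga1, Itgae and Itgb3bp, were not in the scaled fit. Of the 9 beta genes 4 fell, of which Itgb7 changes sign, and 1 rose, and falls were seen in 6 of 11 laminin genes and 3 of 4 genes named after integrin beta. Over the summed 3.92 Mb of the 42 members, peaks covered 3.16 and 3.66% in the KO libraries, against 17.4 and 17.7% in the WT libraries, a KO to WT ratio of 0.194. The other 21845 protein-coding genes gave 2.74 and 3.60% in KO, against 20.1 and 19.4% in WT, a ratio of 0.160. Alpha subunits were covered over 4.05 and 4.67% of their summed span in KO and 23.0 and 23.2% in WT. Beta subunits had 3.23 and 3.78% in KO and 19.9 and 19.7% in WT, and laminin chains 2.44 and 2.94% in KO and 14.2 and 14.8% in WT. In each of these sums both KO libraries lay below both WT libraries, which is p = 0.333 in the exact two-sided permutation test, the smallest that 2 against 2 libraries allow.

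**Figure D1:**
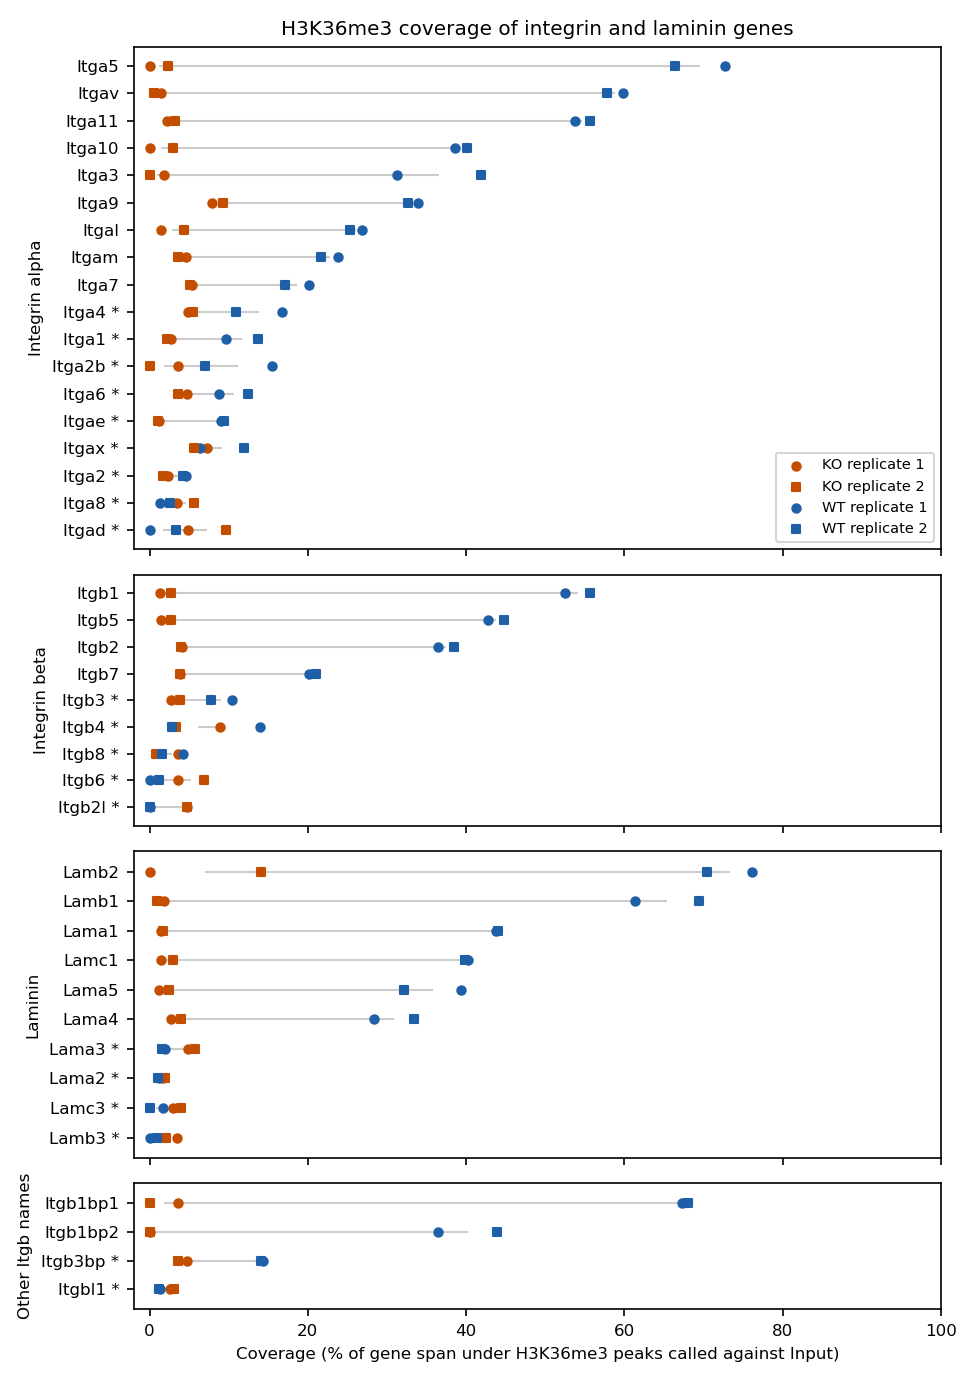
Coverage of each gene whose values are reported, as percent of the gene span under H3K36me3 peaks called against Input (horizontal axis), in 4 panels by class and ordered by WT coverage. Orange marks are KO and blue marks WT libraries (circle replicate 1, square replicate 2), the grey line joins the 2 group means, and an asterisk marks genes under the 10% filter. No KO point passes 14.1%, while WT points run from 0 to 76.1%. Of the genes without an asterisk, Itga9, Itga7, Itgb7 and Itgam would lie the other way round when scaled to mean gene coverage. Genes with an asterisk were not in the scaled fit.

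Among the integrins that read the RGD motif of fibronectin and other ligands, the fibronectin receptor subunit Itga5 (chr15:103344286-103366791) had the largest fall of any member. It was covered over 0 and 2.39% of its span in KO, against 72.8 and 66.4% in WT, a difference of -68.4 points (SE 3.15, limma adjusted p = 0.000249). Itgav (chr2:83722303-83806917), the alpha subunit of the vitronectin receptors, had 1.39 and 0.566% in KO, against 59.8 and 57.8% in WT. In both genes the KO libraries were near 0 and the WT libraries far above them, with no overlap. Itgb5, a beta partner of Itgav, fell by 41.7 points, to 1.48 and 2.75% in KO, against 42.8 and 44.8% in WT (limma, adjusted p = 0.000265). Apart from Itgb1, described below, the other RGD-reading subunits stayed under the filter. Itgb3, which pairs with Itgav and with the platelet subunit Itga2b, had 2.71 and 3.80% in KO and 10.4 and 7.76% in WT, and Itga2b had 3.58 and 0% in KO and 15.4 and 7.04% in WT. Itga8 had 3.52 and 5.62% in KO and 1.34 and 2.54% in WT. Beside Itga2b and Itgb3 stands the megakaryocyte marker list, whose mean coverage was 0 and 0.479% in KO and 13.3 and 11.2% in WT. Ppbp, Pf4 and Gp9 were at 0 in both WT libraries. Of the 7 markers 2 were tested and both fell (limma), beside 92.6% of all genes tested. The part of this list in the values of Itga2b and Itgb3 was not tested.

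Itgb1 (chr8:128685654-128733579), the beta subunit shared by the collagen, fibronectin and most laminin receptors, was covered over 1.28 and 2.69% in KO and 52.5 and 55.7% in WT. It fell by 52.1 points (SE 2.31, limma adjusted p = 0.000232). Of its collagen-binding partners, Itga11 (chr9:62677855-62783979), which stromal cells use on fibrillar collagen, had 2.15 and 3.20% in KO, against 53.8 and 55.6% in WT, and Itga10, known from cartilage, had 0 and 3.0% in KO, against 38.6 and 40.1% in WT. Both fell (limma, adjusted p = 0.000214 and 0.000361). The remaining collagen receptors were less covered in WT: Itga1 had 2.68 and 2.23% in KO and 9.71 and 13.7% in WT, and Itga2 had 2.33 and 1.69% in KO and 4.66 and 4.23% in WT. Neither reached the filter. Without the filter Itga1 fell (limma, adjusted p = 0.0329) and Itga2 did not pass (adjusted p = 0.143).

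Laminin receptors showed a spread of WT coverage. Itga3, which pairs with Itgb1 on laminin, had 1.81 and 0% in KO, against 31.2 and 41.9% in WT, and its WT libraries differed more than those of any other tested member. It fell by 35.7 points (SE 4.45, limma adjusted p = 0.00274). Itga7 (chr10:128933421-128958286), the laminin receptor best known from muscle, had 5.43 and 5.13% in KO and 20.2 and 17.2% in WT, the smallest fall of the tested members at 13.4 points (SE 2.30, limma adjusted p = 0.00698). That call was lost without KO replicate 1 (adjusted p = 0.0522) or KO replicate 2 (adjusted p = 0.0559), with a range of 0.00508 to 0.0559 over its alternatives, and the sign turned under scaling to mean gene coverage. Itga6 had 4.68 and 3.60% in KO and 8.79 and 12.5% in WT. Its partner Itgb4, which anchors epithelial cells at hemidesmosomes, had 8.93 and 3.29% in KO and 14 and 2.84% in WT, so the groups overlapped. Replicate 1 was the higher library in both groups.

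The leukocyte integrins are 8 subunits that blood cells use: the alpha subunits Itgal, Itgam, Itgax, Itgad and Itgae and the beta subunits Itgb2, Itgb7 and the beta-2-like gene Itgb2l. Their summed span was covered over 3.59 and 4.18% in KO and 16.8 and 17.3% in WT. Itgb2, the common beta subunit of lymphocyte and myeloid integrins, had 4.09 and 4.02% in KO, against 36.5 and 38.4% in WT. It fell by 33.4 points (limma, adjusted p = 0.000362). Under scaling to mean gene coverage the difference was -3.01 points and did not pass (limma, adjusted p = 0.411). The Itgb2 partners Itgal and Itgam had 1.41 and 4.32%, and 4.59 and 3.64%, in KO, against 26.9 and 25.3%, and 23.9 and 21.7%, in WT. Both fell (limma, adjusted p = 0.00136 and 0.00213), though without WT replicate 1 the call for Itgal was lost (adjusted p = 0.0522, in a range of 0.00130 to 0.626 over its alternatives), and Itgam changed sign under scaling. The groups did not separate in Itgax, with 7.23 and 5.65% in KO and 6.37 and 11.9% in WT. Itgae, the partner of Itgb7 on lymphocytes of epithelia, had 1.24 and 1.05% in KO and 8.97 and 9.37% in WT, under the filter. Itgad had 4.85 and 9.68% in KO and 0 and 3.29% in WT.

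Over 16 leukocyte markers the mean coverage was 1.90 and 4.99% in KO, against 21.4 and 25.4% in WT. Of the 9 that passed the filter 8 fell, beside 92.6% of all genes, and the B cell gene Cd79b did not pass (limma, adjusted p = 0.875). The highest mean KO coverage among the 8 was 9.70%, in Laptm5, so each passed the filter only through WT. Highest in WT were Lyz2, with 74.9 and 87.6%, Cd68, with 37.0 and 71.3%, and Csf1r, with 45.1 and 43.5%. In KO, Lyz2 had 0 and 11.4%, Cd68 no peak, and Csf1r 2.74 and 2.98%. Against IgG Lyz2 held no WT peak. Cd14 and Cd3e, which mark monocytes and T cells, were among the 3 markers that held no WT peak against Input. The pan-leukocyte gene Ptprc had 2.52 and 4.86% in KO and 15.0 and 14.2% in WT. Whether leukocytes in the culture contribute to the coverage of the leukocyte integrins was not tested.

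Itga4 and Itga9 form a pair of related alpha subunits that bind VCAM1 and matrix ligands. Itga4 missed the filter with a mean of 9.50% over the 4 libraries, with 4.84 and 5.52% in KO and 16.8 and 10.9% in WT. Just above the filter stood Itga7 and Itgb7, with means of 12.0 and 12.2%, and just below it Itga4 and Itgb3bp, with 9.50 and 9.16%.

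Laminin chains divided into covered and nearly bare genes. The 6 chains above the filter were Lamb1, Lamb2, Lamc1, Lama1, Lama4 and Lama5. Lamb2 (chr9:108479847-108490530) had 0 and 14.1% in KO, against 76.1 and 70.5% in WT, the highest WT coverage of any member, and fell by 66.2 points (SE 5.97, limma adjusted p = 0.00108). The KO libraries of Lamb2 differed more than those of any other tested member, and its call was lost without WT replicate 1 (adjusted p = 0.0910) or WT replicate 2 (adjusted p = 0.0826), in a range of 0.000381 to 0.647 over its alternatives. Lamb1 (chr12:31265146-31329644) had 1.78 and 0.891% in KO, against 61.3 and 69.4% in WT, and Lamc1 (chr1:153218922-153332786), the gamma chain of most laminins, had 1.47 and 2.96% in KO, against 40.2 and 39.9% in WT. Both fell (limma, adjusted p = 0.000338 and 0.000275). The 3 alpha chains above the filter were less covered in WT than Lamb1 or Lamb2. Lama1, the embryonic alpha chain, had 1.42 and 1.72% in KO and 43.8 and 44% in WT. Lama5 had 1.14 and 2.40% in KO and 39.4 and 32.2% in WT, and Lama4, the alpha chain of vessel walls and mesenchyme, had 2.76 and 3.91% in KO and 28.4 and 33.4% in WT. All 3 alpha chains fell (limma, adjusted p up to 0.00134). Over 9 endothelial markers the mean coverage was 5.38 and 5.73% in KO and 5.93 and 5.59% in WT, and Tie1 held no WT peak. The 1 marker tested, Egfl7, fell (limma), beside 92.6% of all genes tested. The part of these markers in the laminin values was not tested.

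The other 5 laminin chains lay under the filter. Lama3 and Lamb3 are chains of a laminin of epithelial basement membranes. Lama3 had 4.89 and 5.74% in KO and 1.95 and 1.59% in WT, and Lamb3 had 3.44 and 2.07% in KO and 0 and 0.933% in WT. Lama2 (chr10:26981285-27617191), the alpha chain of muscle and nerve, is the longest member and had 1.72 and 1.93% in KO and 1.21 and 1.12% in WT, the lowest WT coverage of the alpha chains. Lamc3 had 2.94 and 3.96% in KO and 1.66 and 0% in WT. Over the 8 epithelial markers mean coverage was 3.99 and 4.46% in KO and 3.97 and 4.90% in WT, and Krt5, Krt8 and Cldn4 held no WT peak. Of the 2 tested, Cldn7 fell and Krt18 rose, beside 92.6% of all genes tested falling and 0.555% rising. Krt18 had 21.0 and 25.4% in KO and 0 and 8.48% in WT (limma, adjusted p = 0.0141).

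Of the genes named after integrin beta, Itgb1bp1, which binds the cytoplasmic tail of integrin beta 1, had 3.60 and 0% in KO, against 67.3 and 68.0% in WT. It fell by 65.8 points (SE 2.34, limma adjusted p = 0.000211). Asap2 and Cpsf3 overlap 15.5% of its span, and 17.6 and 20.1% of its covered bases in the WT libraries lay there. Itgb1bp2 (melusin, known from muscle) had no peak in either KO library and 36.5 and 43.9% in WT, and fell (limma, adjusted p = 0.000846). Nono, with a mean of 52.9% in WT, starts or ends 494 bp from it. Up to its midpoint, the side of Itgb1bp2 nearer Nono had 38.1 and 46.4% in WT and the other side 34.9 and 41.3%. Itgb3bp, a centromere protein, had 4.68 and 3.60% in KO and 14.3 and 14.1% in WT, and Itgbl1 had 2.62 and 3.06% in KO and 1.27 and 1.23% in WT.

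In WT cells 7 members had 50% or more of the span under peaks in both libraries (Lamb2, Itga5, Itgb1bp1, Lamb1, Itgav, Itga11 and Itgb1), set beside 22.3% of all protein-coding genes. The median coverage over the 42 members was 2.85% in KO and 16.4% in WT, against 2.17% in KO and 14.1% in WT over all protein-coding genes. The members are long, with a median span of 61.8 kb against 17.2 kb over all genes, and genes of at least 10 kb had medians of 2.80% in KO and 25.1% in WT. Across the 42 members span and WT coverage had a Spearman rho of -0.239, and WT and KO coverage had -0.426, against 0.00962 over all genes of at least 10 kb. These are descriptions across genes that share the same 4 libraries.

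Where the strand was known, WT coverage was higher in the 3′ part of the genes than at the 5′ end, and highest on average in bin 4 of 5. Strand came from the promoter table and was had for 14 of the 21 tested members. With the span cut into 5 equal bins, their mean coverage from the first bin to the last was 0.658, 2.75, 1.07, 4.64 and 1.93% in KO replicate 1 and 3.50, 1.96, 2.61, 5.52 and 3.84% in KO replicate 2. In WT the bins held 23.3, 39.0, 56.3, 62.4 and 59.5% in replicate 1 and 24.2, 39.9, 54.2, 62.5 and 61.3% in replicate 2. The last bin exceeded the first by 1.27 and 0.341 points in the KO libraries and by 36.2 and 37.1 points in the WT libraries. These genes passed the filter through WT and had little KO coverage that could differ between bins, so no test is given. In the 6385 other genes of at least 10 kb in the fit, the mean still grew into the last bin, to 69.1 and 67.1% in WT. The last bin was the more covered one in both WT libraries in 12 of the 14 members, or 85.7%, against 89.2% of those other genes.

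**Figure D2:**
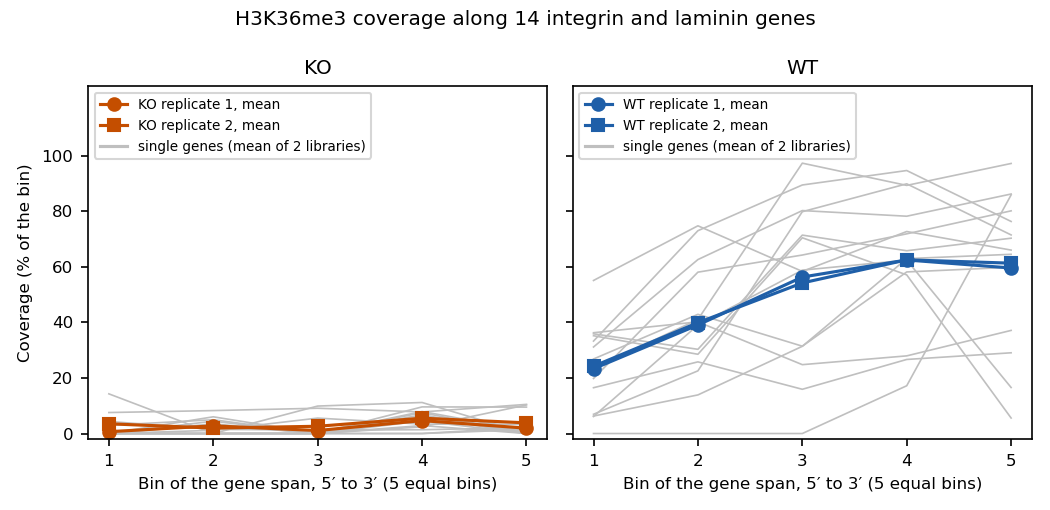
Coverage along the 14 tested genes of known strand, as percent of each of 5 equal bins of the gene span (vertical axis) from the 5′ to the 3′ end (horizontal axis), with KO on the left and WT on the right. Coloured lines are the mean over genes of 1 library each and grey lines are single genes, as the mean of 2 libraries. The KO means reach 5.52% at most, and the WT means climb to 59.5% or more in the last 2 bins.

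Some single genes departed from this shape. Itgb7 held no WT peak in its first 3 bins, 17.2% in the next, and 83.9 and 87.8% in the last bin of the 2 WT libraries. Zfp740, covered over 69.7% of its span in WT, lies 383 bp beyond that 3′ edge. Itgb7 had 3.83 and 3.80% in KO and 20.2 and 21.0% in WT over its whole span and fell by 16.8 points (limma, adjusted p = 0.00240), with the sign turned under scaling. Itga10 was the 1 member more covered in its first bin than its last in both WT libraries. Usp19, covered over 73.0% in WT, lies 76 bp beyond the 3′ edge of Lamb2. The part of Zfp740 and Usp19 in the members' coverage was not tested.

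Peaks within the members were fewer and narrower in KO cells. The members held 219 and 251 peaks in the KO libraries and 741 and 773 in the WT libraries. None of the KO peaks was wider than 2 kb and the widest had 1142 and 1110 bp. In WT, 52 and 43 peaks exceeded 2 kb, and the widest were 6067 bp in Lama5 and 7628 bp in Lamc1. Among 670 regions of the members covered in both WT libraries, 108 or 16.1% held at least 1 base of a KO peak, against 16.8% over all protein-coding genes. That share was 9.40% when 50% of a region had to be shared, 7.07% with peaks at or above the median score of their list, 28.0% with peaks within 1 kb merged, and 9.55 and 7.76% without KO replicate 1 or 2. The KO libraries also shared little with each other: the 12.7 kb covered in both were 10.3% of the covered bases of replicate 1 and 8.87% of those of replicate 2. The WT libraries shared 392 kb, or 57.5 and 56.5% of the covered bases of each.

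**Figure D3:**
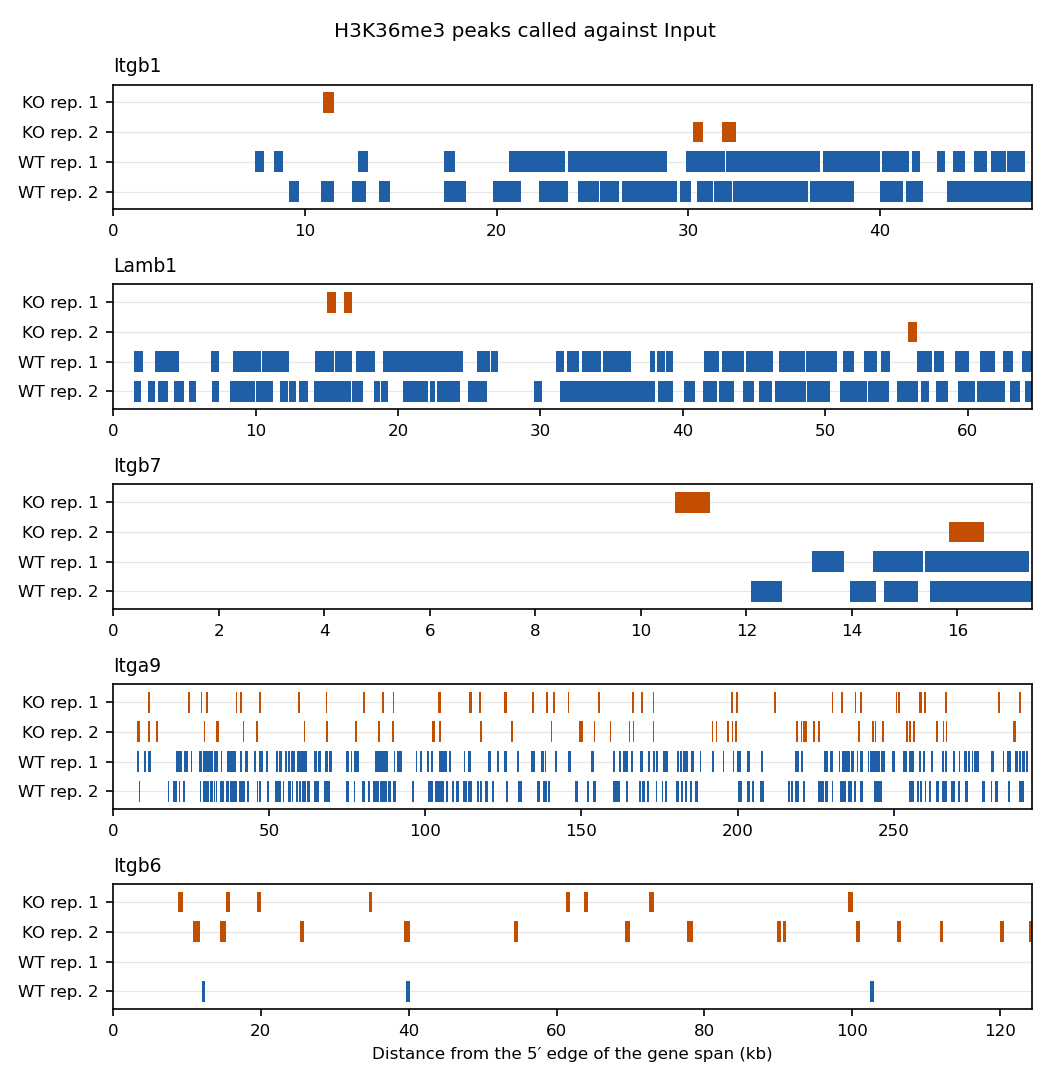
Peaks called against Input along 5 genes, drawn to scale from the 5′ edge of each gene span (horizontal axis, kb), with the KO libraries in orange above the WT libraries in blue. Itgb1 and Lamb1 carry few KO peaks and wide WT peaks, and Itgb7 has WT peaks near its 3′ end. Itga9 has peaks in all 4 libraries, at most 1142 bp wide in KO and up to 3331 bp in WT. Itgb6 has more KO than WT peaks.

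Itga9 (chr9:118606709-118901003), which spans 294 kb, had the highest mean KO coverage of the members, with 7.92 and 9.33% in KO, against 33.9 and 32.6% in WT. Both KO libraries lay well below both WT libraries, and it fell by 24.6 points (SE 1.96, limma adjusted p = 0.000742), while under scaling to mean gene coverage the difference was 19.4 points the other way (adjusted p = 0.0273, the highest of its alternatives, from 0.000796). It was singled out after its values were seen. Of 980 tested genes of at least 100 kb, 7 (0.714%) had a higher mean KO coverage than Itga9, and the median was 3.29%. Its span held 39 and 46 KO peaks and 120 and 123 WT peaks. Of the 36 regions of the members covered in both KO libraries, 11 lay in Itga9, with 3638 of the 12.7 kb, and of the 7 regions covered in all 4 libraries Itga9 held 4, with 1135 bp.

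The listed start of Itga9 lies 105 kb inside the RefSeq span of the gene, so the printed window is that of 1 transcript start. The 300 bases of that window were covered over 100 and 96.0% in KO and 86.0 and 100% in WT. Itga9 was 1 of 6 genes whose window held a peak base in all 4 libraries, 0.0343% of 17492. By the authors' own peak score, the KO peak there stood at the 98.4th and 43.4th percentile of its list in replicates 1 and 2. The WT peaks there stood at the 12.1th and 74.6th percentile in replicate 1 and the 66.2th in replicate 2. Against IgG the window lay under a peak in WT replicate 1 alone. Before the listed start, coverage was 7.19 and 8.82% in KO and 38.6 and 38.1% in WT, and from the start on it was 8.33 and 9.61% in KO and 31.3 and 29.5% in WT. Of the members in the promoter table, Itga9 was the 1 with a KO peak there, and Itga9 and Itga10 were those with a WT peak, while over all genes 1.93 and 2.29% of windows in KO and 2.68 and 2.65% in WT touched a peak.

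CpG content of the start windows differed with WT coverage among the 27 members that have one. The 12 members covered over at least 25% in WT held 4 to 27 CpG with a median of 19, and the 9 covered under 10% held 1 to 23 with a median of 6. Lamb2, with 4 CpG and the highest WT coverage, and Itgb1, with 27, show how far apart 2 covered genes could lie. Spearman's rho between CpG count and WT coverage was 0.472 over the 27 members and 0.554 over all 17492 genes, a description across genes.

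Of the 21 members under the filter, 9 had both KO libraries above both WT libraries: Itgb2l, Lamb3, Itgb6, Lamc3, Lama2, Itgbl1, Itgad, Lama3 and Itga8. Another 8 lay below and 4 overlapped. The shares over all genes under the filter were 19.9% above and 14.9% below, and over those of at least 10 kb 33.6% above and 23.3% below. The 9 genes together were covered over 2.90 and 3.76% of their span in KO and 1.20 and 1.36% in WT, with 88 and 110 peaks in KO and 36 and 42 in WT, all of them at most 1062 bp wide. They were picked for this order, and over all 21 members under the filter coverage was 3.14 and 3.43% in KO and 3.68 and 3.73% in WT, with 140 and 148 peaks in KO and 142 and 143 in WT. Itgb6, the beta subunit of an epithelial integrin that activates TGF-beta, had 3.59 and 6.90% in KO and 0 and 1.25% in WT. Itgb2l (chr16:96422288-96443664), which lies within the span of Igsf5, had 4.79 and 4.73% in KO and no peak in WT. Each KO library held 2 peaks in Itgb2l, and no base of the gene was covered in both KO libraries. Itgb2l was the 1 member that rose when limma was fitted without the filter (adjusted p = 0.0161). The falls added in that fit were Itgae (adjusted p = 0.0139), Itgb3bp (0.0145) and Itga1 (0.0329). Itgb8, the remaining beta subunit, had 3.59 and 0.758% in KO and 4.24 and 1.53% in WT, and the groups overlapped.

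Against IgG in place of Input, coverage of the 21 members was lower in 8 and 13 genes in the KO libraries and in 18 in each WT library. Of 20 members that passed the filter against IgG 20 fell, beside 91.4% falling and 0.218% rising among 9635 genes (limma), and Itga7 no longer reached the filter. The mean over the 21 members tested against Input was 1.58 and 2.29% in KO and 34.7 and 36.3% in WT against IgG, and 2.26 and 3.37% in KO and 43.1 and 43.8% in WT against Input. Loss of WT coverage under IgG was uneven: Itga5 had 0 and 2.39% in KO and 37.5 and 44.4% in WT against IgG, a ratio of 0.588 to its WT coverage against Input, while Lamb2 had a ratio of 1.00. Itgb1, Itga11 and Lama1 had ratios of 0.625, 0.632 and 0.640.

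**Figure D4:**
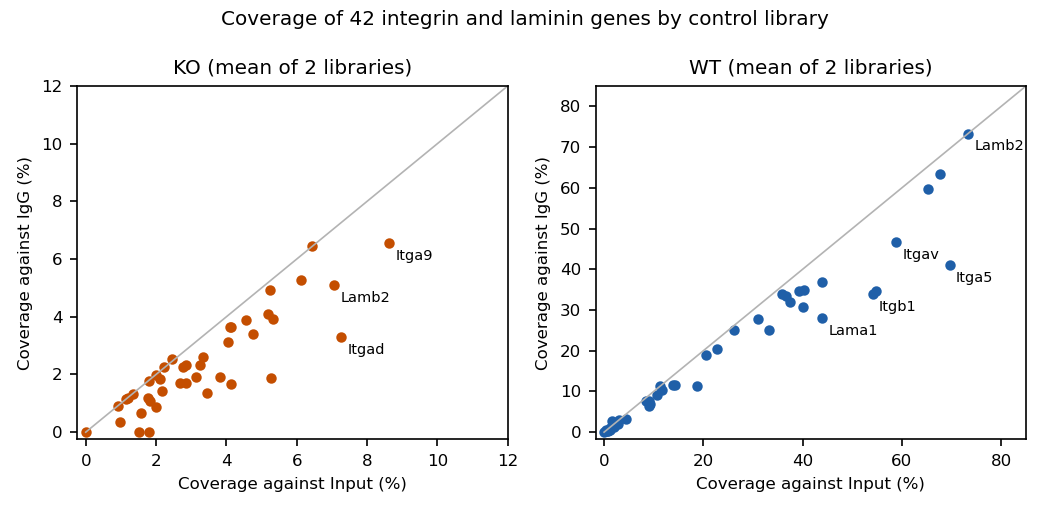
Mean coverage of the 42 genes against Input (horizontal axis, percent of gene span) and against IgG (vertical axis), with KO on the left and WT on the right on different scales. Each point is 1 gene, the mean of 2 libraries, and the grey line marks equal values. Lamb2 sits on the line in WT, and Itga5, Itgb1 and Lama1 fall well below it.

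Genes that work with integrins were lower too, as most covered genes were. The gene lists below were chosen with earlier results of these data known. Of 40 genes of integrin adhesion complexes 39 fell in the fit without the filter (limma), beside 58.5% of all genes in that fit. Of these 40 genes 38 passed the filter, beside 49.4% of all protein-coding genes, so the list is richer in covered genes. The 39 falls therefore say nothing about adhesion genes as a group. Of the 38 that passed the filter, none with a mean KO coverage above 5.28%, all 38 fell, beside 92.6% of all genes, with a median difference of -45.1 points, near the -47.7 of all genes tested. The largest falls were in Tln1 (talin, which links integrin tails to actin), with 3.14 and 2.38% in KO and 85.7 and 81.2% in WT, and in Zyx (zyxin), with 0 and 2.05% in KO and 83.9 and 70.6% in WT. The smallest were in Parvg, the parvin of blood cells, which fell by 13.1 points (limma, adjusted p = 0.0150), and Tns1 (tensin 1), which fell by 16.3. Of 26 basement membrane genes, other ligands and receptor partners 22 fell without the filter, beside the same 58.5%. All 21 that passed the filter fell, beside 92.6% of all genes, with a median of -47.7 points. Apart from Fn1 and Thbs1, with mean KO coverage of 11.5 and 16.8%, these genes passed the filter only through WT. That leaves little room for any other direction. Adam15 fell by 81.2 points and Agrn (agrin, which binds laminin) fell by 75.7 points. Sdc2 (syndecan 2) fell by 19.6 points and Spp1 (osteopontin, an RGD ligand) fell by 23.9 points. Under scaling to mean gene coverage 23 of the 38 and 7 of the 21 stayed lower, beside 45.2% of all genes. Against IgG 33 of 33 and 15 of 17 fell, beside 91.4% of all genes tested against IgG. Spp1 and Sdc1 did not pass there (limma, adjusted p = 0.0757 and 0.0925). The fibronectin gene Fn1 had 6.63 and 16.3% in KO and 77.4 and 74.9% in WT against Input, but held no WT peak against IgG, as did Thbs1 and Flna.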

How the data were processed

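H3K36me3 ChIP-seq of Setd2 fl/fl bone marrow stromal cells was used as 8 deposited peak lists, from 2 KO and 2 WT H3K36me3 libraries, each against Input and against IgG. Per the submitters' processing notes, the authors used Bowtie2 and the build GRCm38. Which peak caller was run, and how, is not given in the sources used here. Each list gives peak positions and a score per peak, which the authors deposited with no stated scale and which was used only to rank or filter peaks within a list. Input and IgG are 1 library per group, so the lists of a group share them. Lists were called per library, so coverage also moves with how much was called.

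Coverage was the percent of a RefSeq gene span (GRCm38.p6) under the union of a library's peaks, over 21887 protein-coding genes. KO and WT were compared with limma 3.58.1 (trend and robust, R 4.3.3) on the percent scale over genes with a mean of at least 10%, with Benjamini-Hochberg adjustment at 0.05, after tests on simulated data, and pooled values with an exact two-sided permutation test. The precision is set by 2 libraries per group, since depth is unknown. Overlap needed 1 bp in common. Values in full were given for the members with the highest WT or KO coverage, the extremes of each class, those next to the filter, and the 2 largest and 2 smallest changes of each partner list; all 42 members enter the counts, but the values of 1 member are not reported here. The members and gene lists were chosen with earlier results of these data known. Alternatives were IgG lists, score, filter, scale, scaling, merging of peaks within 1 kb, a replicate block and leaving out each library.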

Additional observations from a re-analysis of the deposited data

How the results depend on the processing

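The members that fell numbered 21 in the reported fit, beside 92.6% of all genes, and 20 with IgG lists, beside 91.4%. Without the filter 24 fell, beside 58.5%. There were 17 with peaks at or above the median score, 22 with peaks within 1 kb merged and 21 on the arcsine square root scale. Where no share over all genes is given beside a count in this section, the count describes the listed genes alone. None of the counts says anything about the members as a group. A filter of 25% left 7 tested members and all 7 fell, with 18 adhesion and 11 basement membrane genes, since fewer genes are tested. Scaling to mean gene coverage left 10 members, 23 adhesion genes and 7 basement membrane genes lower, beside 45.2% of all genes. It made 2 members higher in KO, beside 2.41% of all genes, against 0 in the reported fit and 1 without the filter. Scaled, Itga9 reversed to 19.4 points (adjusted p = 0.0273), Itga7 to 13.1 (0.0487), Itgam to 5.80 (0.291) and Itgb7 to 5.44 (0.145), all by limma. Leaving out 1 library in turn gave 16 to 20 falling members, 32 to 36 adhesion genes and 16 to 21 basement membrane genes, and pooled differences over all members of -14.4 to -13.9 points. The lone library is then assumed to vary like the others.

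The share of regions covered in both WT libraries that hold a KO peak was 16.1%, but 10.9% with IgG lists, 9.40% when at least 50% of the region had to be shared, 7.07% with peaks at or above the median score, 28.0% with merged peaks, and 7.76 to 9.55% with 1 KO library left out. The cause of these changes was not tested beyond the construction of each alternative. Replicate numbers are not a pairing in the labels, and deviations of same-numbered libraries had r = -0.00333 across 10809 genes. With a replicate block in the limma fit 21 members, 38 adhesion genes and 21 basement membrane genes fell, the same counts. Depth is unknown, and 2 libraries a group limit every comparison.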
